A study of Mus musculus with 4 samples.

Results

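The genes described here are 10 genes of mast cell receptors, proteases and regulators, read in cultured mouse melanocytes. They were found as all probe sets that the platform annotation gives to a single one of these symbols, which came to 14 probe sets, out of 34945 probe sets and 18193 genes with a single symbol. Mrgprb1, Cd200r4 and Pla2g2e were chosen from their large differences between the 2 cell lines on these same 4 arrays, so their values are given as a description with no test. The other 7 (Cma1, Cpa3, Tpsb2, Hdc, Fcer1a, Ms4a2 and Gata2) were chosen by annotation as established mast cell genes. The question is whether more of the mast cell repertoire accompanies the 3 genes.

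The non-pigmented line carries a homozygous point mutation of the tyrosinase gene, which the pigmented line carries in corrected, wild-type form. Both are skin melanocytes of a Balb/c background, and both were grown in RPMI medium with fetal calf serum, 2-mercaptoethanol and the phorbol ester TPA. Total RNA was hybridised to 2 Affymetrix arrays per line. Each group is thus a single line, no separate cultures are named for its arrays, and how the correction was made is not stated, so the p-values measure only how far these samples spread, which may be technical spread.

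Mast cells are tissue-resident cells of the blood lineage that store histamine, heparin and proteases in granules. They release them when IgE bound to the high-affinity receptor FceRI meets its antigen, or when a Mas-related receptor senses a cationic peptide. Melanocytes come from the neural crest, yet both cell types depend on the receptor tyrosine kinase Kit and the transcription factor Mitf, and both build granules related to lysosomes.

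Sequences before a start of each of the 3 genes that set the lines apart are shown with one of Cpa3, a mast cell protease gene that was dim here, to set genes that were bright together beside one that was not. Motifs were sought in the 250 bases before one start of each gene in the RefSeq table of build GRCm38.p6, and the sequences are printed 5′ to 3′ on the gene's strand. For Pla2g2e and Cpa3 the 31 and 28 bases nearest that start lie past an outer annotated start and are not printed, which leaves 219 and 222. For Cd200r4 the start used lies 9078 bases inside the annotated gene, so its window is within the gene and not upstream of all its starts. The printed stretches are chr7:48456343-48456592 on the minus strand for Mrgprb1, chr16:44820478-44820727 on the plus strand for Cd200r4, chr4:138877692-138877910 on the plus strand for Pla2g2e and chr3:20242210-20242431 on the minus strand for Cpa3. Capitals mark, on either strand, the E-boxes CATGTG and CACGTG that MITF binds, the GATA core GATAA, and the AP-1 site TGACTCA, through which phorbol esters act on many genes. The AP-1 site was added to the search after the sequences were seen.
Mrgprb1: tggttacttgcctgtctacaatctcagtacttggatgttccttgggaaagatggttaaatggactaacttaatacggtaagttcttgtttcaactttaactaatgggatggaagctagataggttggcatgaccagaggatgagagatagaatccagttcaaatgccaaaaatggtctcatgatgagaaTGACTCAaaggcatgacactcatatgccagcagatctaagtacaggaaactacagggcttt
Cd200r4: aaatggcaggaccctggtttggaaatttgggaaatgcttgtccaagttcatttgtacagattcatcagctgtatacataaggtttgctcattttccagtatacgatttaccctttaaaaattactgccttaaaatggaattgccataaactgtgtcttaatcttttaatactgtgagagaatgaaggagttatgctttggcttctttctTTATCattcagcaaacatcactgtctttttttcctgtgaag
Pla2g2e: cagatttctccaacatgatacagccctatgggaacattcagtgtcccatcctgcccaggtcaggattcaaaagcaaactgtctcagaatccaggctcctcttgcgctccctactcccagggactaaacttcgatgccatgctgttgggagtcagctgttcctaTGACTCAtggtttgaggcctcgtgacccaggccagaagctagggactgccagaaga
Cpa3: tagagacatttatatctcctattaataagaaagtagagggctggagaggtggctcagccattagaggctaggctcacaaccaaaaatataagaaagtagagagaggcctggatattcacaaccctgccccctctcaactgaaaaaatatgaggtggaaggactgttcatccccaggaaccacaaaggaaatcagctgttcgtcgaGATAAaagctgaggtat

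Neither E-box was found in the windows of the 3 genes. CATGTG is present in 12.3% and CACGTG in 6.02% of 32851 RefSeq windows of that length. TGACTCA lay 61 bases before the start in Mrgprb1 and 87 bases before it in Pla2g2e, and 4.46% of all windows hold it. The window of Cd200r4 held a GATA core 41 bases before the start, written TTATC on this strand, and that of Cpa3 one 45 bases before it. GATAA was present in 22.6% of all windows, and in 4 of the 6 annotation-chosen members that had a window (Cma1, Cpa3, Fcer1a and Ms4a2). TGACTCA was in none of those 6 and CATGTG in 1, Fcer1a. No factor's binding was measured, so these are letters in a window and nothing more.

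Values are probe set signals on a linear scale, which the authors had scaled to a trimmed mean of 500 on every array. The median signal of an array was 99.7 to 129.6. The files used here hold no detection call, so the signals of 21 genes restricted to other tissues, such as Alb of liver, Umod of kidney and Gh of the pituitary, served as a yardstick for what a silent gene can read. They ran from 4.16 to 239 over the 4 arrays, with medians of 46.3 to 77.7 per array. Replicate 2 of either line had lost 5′ signal, with a Gapdh 3′ to 5′ ratio of 20.2 and 16.8 against 0.903 and 0.864 in replicate 1.

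The melanocyte identity of both lines was checked on 12 markers. Sox10, the neural crest factor of melanocytes, read 8268 and 8558 on the non-pigmented arrays against 8602 and 10232 on the pigmented ones, and Mlana, Pmel and Dct were above every yardstick gene on all arrays. Of the 12 markers 10 rose in the pigmented line by limma (against 0.916% of all tested genes), with a median log2 difference of 4.32 over the 12. Dct, Pmel and Mlana, which encode a melanin enzyme, the fibril protein and a protein of melanosomes, differed by 4.25, 4.38 and 2.99. The differences of the members described next therefore stand beside a difference in nearly the whole marker list, and the part of that in them was not tested. Kit, Tyr, Oca2, Gpr143 and Trpm1, each by its brightest probe set, lay within the yardstick range on both non-pigmented arrays. Apoa2 alone set the upper end there, at 239 and 234, and the next were Sftpc at 157 (replicate 1) and Amelx at 125 (replicate 2). Trpm1 (225 and 209), Tyr on replicate 1 (214) and Gpr143 on replicate 2 (166) lay between these.

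Mrgprb1, Cd200r4 and Pla2g2e were bright in the pigmented line and no brighter than silent genes of other tissues in the non-pigmented line. Mrgprb1 encodes a Mas-related G protein-coupled receptor of a family that senses peptides in mast cells and sensory neurons. Its signal was 117 (replicate 1) and 57.9 (replicate 2) for the non-pigmented line, against 8710 (replicate 1) and 9663 (replicate 2) for the pigmented line, and pairs of values below keep this order. The groups were far apart, and on the pigmented arrays Mrgprb1 ranked 504th and 537th of 45101 probe sets. The mean log2(signal + 16) was 6.63 ± 0.60 (SD, n = 2) in the non-pigmented and 13.17 ± 0.11 (SD, n = 2) in the pigmented line. The lines were 6.53 apart on that scale, which is 92.7-fold.

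Cd200r4 encodes an activating receptor of the CD200 receptor group, which signals through the adaptor Tyrobp. It read 13.9 and 26.99 on the non-pigmented arrays and 5195 and 6832 on the pigmented arrays. On the former it was dimmer than 20 and 17 of the 21 yardstick genes, so the lower end of its difference rests on the pseudocount. Its log2 means were 5.17 ± 0.37 (SD, n = 2) and 12.54 ± 0.28 (SD, n = 2), and the log2 difference of 7.38 (167-fold) became 6.16 with a pseudocount of 64 and 8.19 with 1.

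Pla2g2e encodes a secreted phospholipase A2, an enzyme that frees fatty acids from phospholipids and feeds eicosanoid synthesis. Its signal was 36.5 and 84.9 in the non-pigmented and 5783 and 7237 in the pigmented replicates. Again no array of one line came near the other line. The log2 means were 6.19 ± 0.67 (SD, n = 2) and 12.66 ± 0.23 (SD, n = 2), which are 6.48 apart, or 89.1-fold.

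Among the 12558 genes tested, each by its brightest probe set, the differences of Cd200r4, Mrgprb1 and Pla2g2e were the 4th, 9th and 10th largest in the pigmented direction, which is how they came to be chosen. Each gene has a single probe set, so no other probe set of the gene could be read. Between arrays of intact RNA the log2 differences were 7.44 for Cd200r4, 6.04 for Mrgprb1 and 6.79 for Pla2g2e. Between the arrays with lost 5′ signal they were 7.32, 7.03 and 6.17. Between the arrays of the first date in the titles they were 7.84, 6.19 and 7.11, and between those of the second date 6.92, 6.88 and 5.84. The 3 genes thus kept their direction within every pair, a property that their choice by size largely fixes.

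**Figure D1:**
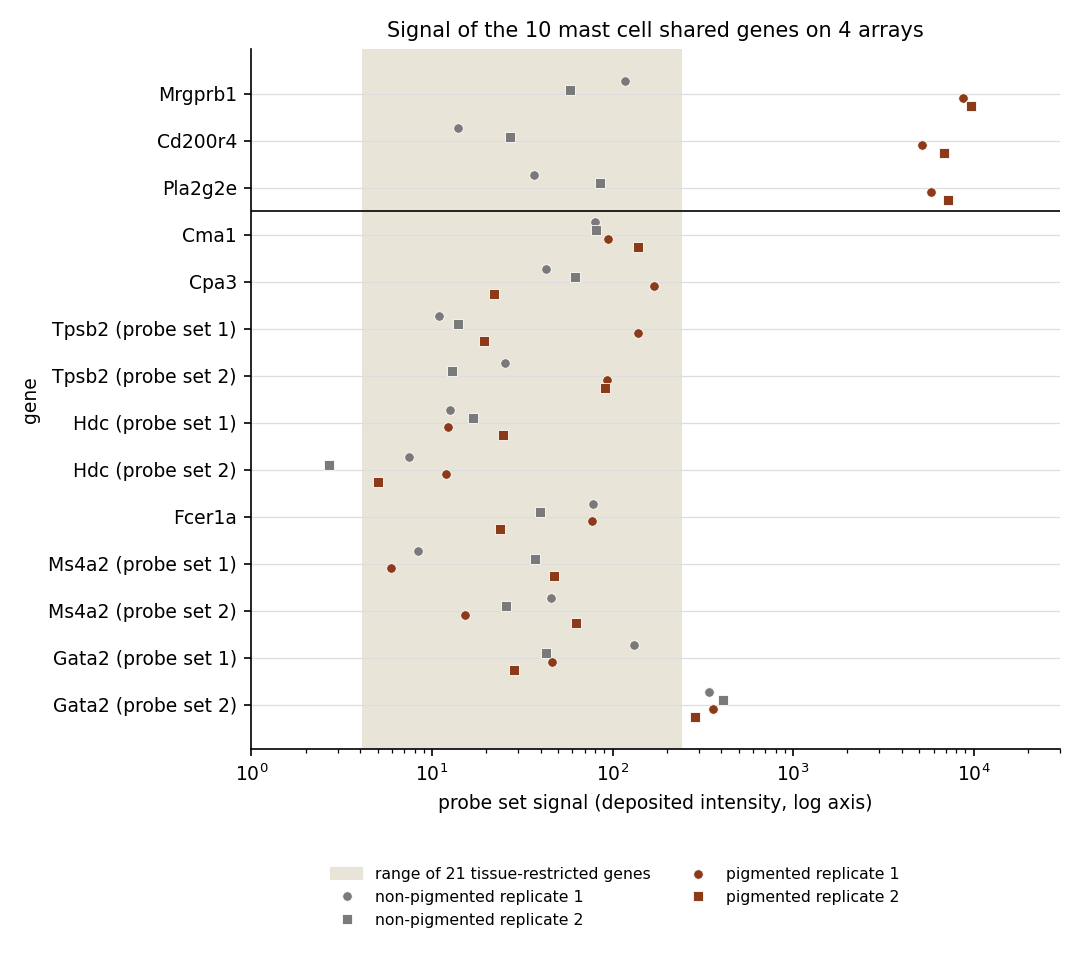
Signal (deposited intensity, log axis) of every probe set of the 10 genes, 1 point per array, with the range of 21 tissue-restricted genes (4.16 to 239) shaded. The 3 genes chosen by their values stand at 5195 to 9663 on the pigmented arrays, and below the line 1 of the 2 Gata2 probe sets lies to the right of the shading while the other members lie in it or, for Hdc, partly left of it.

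The 7 genes chosen by annotation were dim in both lines, Gata2 apart, and none was called. Of their 11 probe sets, 9 were too dim to be tested (a mean log2 value under 6.44, a signal of 70.7), and those left belonged to Cma1 and Gata2. With limma, neither of these 2 genes was called at an adjusted p under 0.05, and neither had an unadjusted p under 0.05, which 16.3% of all tested genes had in at least 1 probe set. Over the whole array 1.49% of 27022 tested probe sets were called, and 2.31% of 12558 genes had a called probe set. Of the 44 values of these probe sets, 39 were at or below the brightest yardstick gene of the same array.

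The granule proteases are the most abundant products of mature mast cells. Cma1, a chymase, read 80.1 and 81.4 in the non-pigmented and 94.2 and 139 in the pigmented replicates. The groups did not overlap, but every value lay within the yardstick range. The log2 difference was 0.43 ± 0.49 (SE), with an adjusted p of 0.815 by limma.

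Cpa3, carboxypeptidase A3, read 42.8 and 61.8 on the non-pigmented and 171 and 22.0 on the pigmented arrays. The pigmented arrays enclosed the non-pigmented ones. Pigmented replicate 1 was above all 21 yardstick genes of its array, and pigmented replicate 2 below 18 of them. The log2 difference was 0.32, from -0.83 to 1.46 as single arrays were left out.

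Tpsb2, a tryptase, was brighter on both pigmented arrays in each of its probe sets. The first read 10.9 and 14.0 in the non-pigmented and 138 and 19.5 in the pigmented replicates. The second read 25.4 and 12.9 against 92.9 and 91.3. None of these values was above the brightest yardstick gene of its array, and both probe sets fell under the filter. Their log2 differences were 1.38 and 1.64. In the fit without a filter the second had an unadjusted p of 0.0229 and an adjusted p of 0.405 by limma, and its difference went from 0.91 to 2.28 as the pseudocount went from 64 to 1. Groups that do not overlap are common with 2 arrays each: 3 of the 11 probe sets of the annotation-chosen genes had them, all of them higher on the pigmented arrays, as were 26.2% of all 45037 probe sets that are no controls.

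Hdc, the enzyme that makes histamine, was the dimmest member. Its first probe set read 12.5 and 16.9 in the non-pigmented and 12.3 and 24.6 in the pigmented replicates. Its second read 7.46 and 2.68 against 12.0 and 5.01. The lines overlapped in both, with log2 differences of 0.15 and 0.21. That of the first became -0.04 with quantile normalization and -0.10 with arrays centred on the median.

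Fcer1a and Ms4a2 encode the alpha and beta chains of the IgE receptor, whose alpha chain binds IgE. Fcer1a read 77.8 and 39.6 in the non-pigmented and 77.2 and 23.8 in the pigmented replicates, a log2 difference of -0.24. The first Ms4a2 probe set read 8.38 and 37.2 against 5.90 and 47.4, and the second 45.4 and 25.6 against 15.3 and 62.7. The Ms4a2 log2 differences were 0.05 and -0.03, the latter 0.02 with a pseudocount of 64. In each of these 3 probe sets the lines overlapped. In the first of Ms4a2 replicate 2 of either line was brighter than replicate 1, and these are the arrays with lost 5′ signal. The part of RNA integrity in that was not tested.

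Gata2, a zinc finger factor required for mast cell development, was the one annotation-chosen member above the yardstick on all 4 arrays, in 1 of its 2 probe sets. That probe set read 343 and 407 in the non-pigmented and 359.7 and 285 in the pigmented replicates. Its log2 means were 8.61 ± 0.17 (SD, n = 2) and 8.39 ± 0.23 (SD, n = 2), and the log2 difference of -0.22 ± 0.46 (SE) had an adjusted p of 0.904 by limma. The dimmer Gata2 probe set read 132 and 43.0 against 46.0 and 28.5, with overlapping lines and a log2 difference of -0.83.

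**Figure D2:**
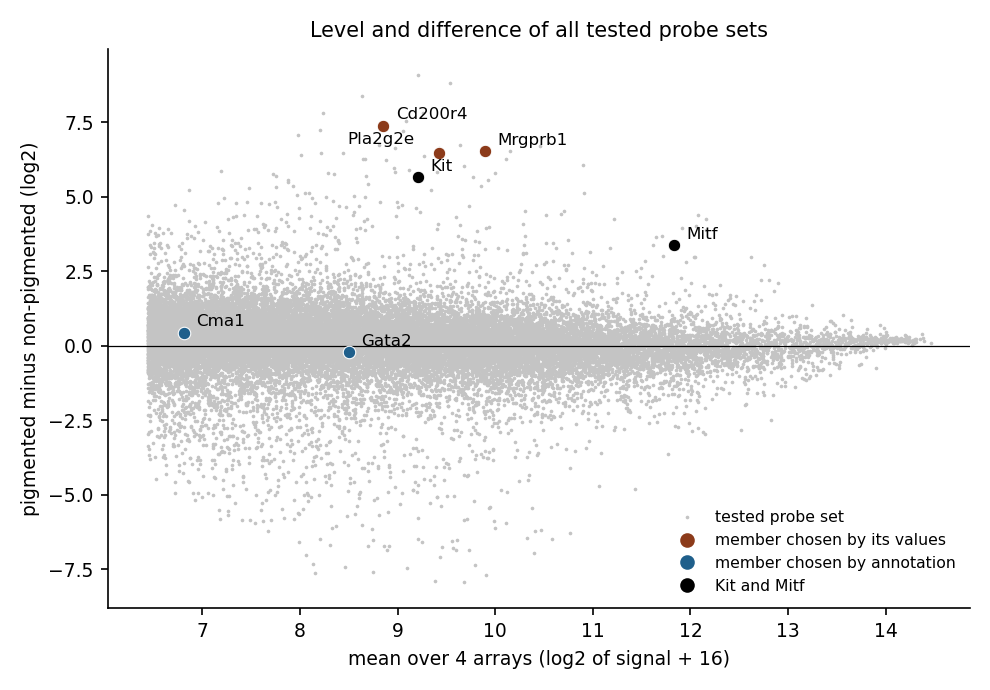
Mean level over the 4 arrays (horizontal, log2 of signal + 16) against the difference between the lines (vertical, pigmented minus non-pigmented, log2) for 27022 tested probe sets in grey. Of the members that could be tested, Cma1 (0.43) and Gata2 (-0.22) lie in the body of the cloud, while Mrgprb1, Cd200r4 and Pla2g2e lie at its upper edge near Kit (5.66).

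A wider set of 59 mast cell genes outside the 10 was then read, of which 54 were on the array with a probe set of their own and 27 could be tested. By limma 2 of the 27 rose in the pigmented line (against 0.916% of all tested genes), 0 fell (against 1.39%) and 25 did not pass. An unadjusted p under 0.05 by limma was found for 5 of the 27 (Kit, Mitf, Pla2g4a, Csf2rb and Runx1), against 16.3% of all tested genes. The same share stands beside the counts at that threshold for the single lists below. The 2 were Kit and Mitf, which melanocytes need as well. The median log2 difference over the 27 was 0.19, against 0.07 over all tested genes. Of the 54 genes, 30 stayed at or below the brightest yardstick gene on all arrays and 10 were above it on all arrays.

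Kit, the receptor for stem cell factor, read 62.4 and 72.1 in the non-pigmented and 5086 and 3459.5 in the pigmented replicates in its brighter probe set. It rose by 5.66 ± 0.48 (SE), with an adjusted p of 0.0138 by limma. Its dimmer probe set read 23.7 and 18.004 against 911 and 60.9 and did not pass (difference 2.86 ± 1.14, SE, adjusted p of 0.417). Without pigmented replicate 2, an array with lost 5′ signal, that probe set differed by 4.66 and was called (adjusted p of 0.0144), and without pigmented replicate 1 it differed by 1.07 (adjusted p of 0.633).

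Mitf, the factor that drives pigment genes and mast cell genes alike, read 796 and 1576 in the non-pigmented and 13405 and 10158 in the pigmented replicates. It rose by 3.36 ± 0.47 (SE), with an adjusted p of 0.0347 by limma. The call did not hold without non-pigmented replicate 1 (adjusted p of 0.0796). In the fit without a filter the adjusted p was 0.0504. Its dimmer probe set differed by 2.98 with an adjusted p of 0.0510. With eBayes without a trend the brighter probe set missed the threshold (0.0538) and the dimmer one passed it (0.0488).

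None of the 8 granule protease genes on the array beyond the members reached the level at which a gene was tested. Their brightest were Mcpt2, a chymase of mucosal mast cells, at 55.4 and 15.6 in the non-pigmented and 153 and 110.1 in the pigmented replicates, and Tpsab1, a tryptase, at 15.5 and 71.7 against 132 and 99.8. Their log2 differences were 1.62 and 1.32. Of the 8 genes 4 (these, Mcpt1 and Tpsg1) were higher on both pigmented arrays without overlap, a property of 26.2% of all probe sets, and in 3 (Mcpt4, Ctsg and Gzmb) the lines overlapped. Mcpt8, a protease of basophils, was lower on both, at 58.7 and 67.3 against 22.1 and 29.8. Of the 21 yardstick genes, 6 were likewise lower on both without overlap. The summed signal of the 8 was 269 and 309 in the non-pigmented and 485 and 411 in the pigmented line. Tryptase genes are close paralogs, so their probe sets may share signal.

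Granule cargo other than proteases was dim or did not pass. Srgn, the serglycin core protein that holds granule proteases, read 24.1 and 36.2 against 9.02 and 18.3, and Slc18a2, which loads amines into granules, 52.5 and 22.6 against 45.1 and 9.62. Ndst2, a heparin-modifying enzyme, was the brightest of the 7 at 385 and 474 against 471 and 752, with a log2 difference of 0.47 and an adjusted p of 0.798 by limma. Slc18a1, another amine transporter, differed by -0.60 with an adjusted p of 0.704, while a dimmer probe set of it differed by 0.59 (adjusted p of 0.735), and 0 of the 2 genes tested here had an unadjusted p under 0.05.

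Of the 6 eicosanoid genes on the array 3 were tested. None was called by limma (0 of 3), and 1 had an unadjusted p under 0.05. That was Pla2g4a, the cytosolic phospholipase A2, at 1450 and 1436 in the non-pigmented and 741 and 276 in the pigmented replicates. Its log2 difference was -1.63 ± 0.59 (SE), with an adjusted p of 0.365, opposite in sign to that of the secreted Pla2g2e. Without pigmented replicate 1 it was -2.32, and without pigmented replicate 2 it was -0.95. Alox5ap, which presents arachidonic acid to 5-lipoxygenase, read 149 and 164 against 164 and 56.6. Ltc4s, which makes leukotriene C4, read 30.9 and 38.6 against 22.5 and 26.99, and Hpgds, which makes prostaglandin D2, 56.7 and 22.1 against 145 and 59.99.

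Of the 12 mast cell receptor genes 7 were tested, and Kit alone was called, with 2 (Kit and Csf2rb) at an unadjusted p under 0.05. Fcer1g, the signalling chain shared by Fc receptors, read 71.7 and 114 against 108 and 96.6, within the yardstick range. The low-affinity Fc receptor gene Fcgr2b was the second brightest of the list, at 322 and 392 against 384 and 408, and differed by 0.15 with an adjusted p of 0.936 by limma. Il3ra, the alpha chain of the interleukin-3 receptor, was named after its values were seen. It read 4.95 and 8.82 in the non-pigmented and 314 and 154 in the pigmented replicates, a log2 difference of 3.38. Both pigmented values were above the brightest yardstick gene of their array, but its mean fell under the filter. Without a filter its adjusted p was 0.113 by limma. Csf2rb, the beta chain of that receptor, read 20.8 and 89.7 against 152 and 251, with a difference of 1.76 and an adjusted p of 0.389. Without non-pigmented replicate 1 that difference was 1.002, and a dimmer Csf2rb probe set differed by 0.02.

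Of 9 transcription factors on the array 7 were tested, and all but Mitf were not called, with 2 (Mitf and Runx1) at an unadjusted p under 0.05. Gata1 read 97.5 and 104 in the non-pigmented and 150.2 and 158 in the pigmented replicates, with a log2 difference of 0.55 and an adjusted p of 0.740 by limma. Tal1, Lyl1, Fli1 and Spi1, further blood factors, had differences of 0.75, 0.93, 0.47 and 0.02. Lyl1 and Spi1 were tested and not called (adjusted p of 0.542 and 0.995 by limma), and Tal1 and Fli1 were too dim to be tested. Stat5b, which relays cytokine signals, was the brightest after Mitf and differed by 0.60 with an adjusted p of 0.740. Runx1 had 6 probe sets, of which 1 read 429.8 and 195 against 49.0 and 3.76. That probe set differed by -3.10 with an adjusted p of 0.165 by limma, and of 0.0285 with the RNA integrity pair as a block, while the brightest differed by -0.38. The other tested Runx1 probe set went the opposite way, by 1.38 with an adjusted p of 0.373 by limma. Those too dim to be tested differed by -1.72, -1.29 and -1.62, and in each of them non-pigmented replicate 1 was the brightest array.

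The signalling chain below the IgE receptor was represented by 12 genes, of which 8 were tested and 0 called by limma or at an unadjusted p under 0.05. Fyn, a Src family kinase, was the brightest at 2559 and 2675 against 1666 and 1754 (log2 difference -0.61, adjusted p of 0.643). Plcg1 followed by mean log2 value, at 1758 and 1537 against 1688 and 2083 (log2 difference 0.19, adjusted p of 0.908). Gab2, an adaptor, came after it with 0.55 and an adjusted p of 0.796. Syk and Btk, kinases typical of blood cells, were under the filter, at 73.2 and 54.8 against 19.8 and 43.2, and at 47.1 and 98.7 against 20.99 and 5.35. The median difference of the tested genes of this list was -0.03.

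Relatives of the 3 genes that had a probe set of their own were compared, so not every family was read in full. Of 8 other Mas-related receptor genes on the array 2 were tested, and limma called 0 (0 also at an unadjusted p under 0.05). Mrgpre, the brightest, read 208 and 212 in the non-pigmented and 287 and 253 in the pigmented replicates, and differed by 0.34 with an adjusted p of 0.846. Mrgpra3, an itch receptor of sensory neurons, read 94.9 and 144 against 55.3 and 203. Of 22 relatives listed, only these 8 had a probe set of their own. Mrgprb2, the mast cell receptor for cationic peptides, was not among them, nor were Mrgprb3, Mrgprb4, Mrgprb5, Mrgprb8, Mrgprb10 and Mrgprb13. No other Mrgprb gene was therefore read, and whether Mrgprb1 differed alone among them was not tested. Mas-related receptor genes are close paralogs, and whether a probe set also reads a paralog was not tested.

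Of the CD200 group, Cd200r1, the inhibitory receptor, read 7.63 and 4.47 in the non-pigmented and 399.8 and 49.0 in the pigmented replicates, a difference of 2.90. Its pigmented arrays were themselves far apart. Its mean fell under the filter, and without a filter the adjusted p was 0.374 by limma. Its other probe set read 5.56 and 20.98 against 6.54 and 31.2. Cd200r3, of the same group, was too dim to be tested in either probe set. These read 15.5 and 4.45 against 38.9 and 1.87, and 9.16 and 1.45 against 67.1 and 3.24. Cd200r2 and Cd200r1l had no probe set of their own. Cd200, the ligand, read 249.9 and 334 against 742 and 267 (difference 0.60, adjusted p of 0.791). Tyrobp, the adaptor that activating CD200 receptors need at the cell surface, read 90.3 and 59.6 against 122 and 71.9, which is within the yardstick range on every array, and differed by 0.30 with an adjusted p of 0.887. By limma 0 of the 3 genes tested in this group were called or had an unadjusted p under 0.05. The related adaptor Hcst read 43.2 and 120 against 57.5 and 155.

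Of 11 other genes of secreted phospholipases and their receptor 7 were tested, and limma called 0, again 0 also at an unadjusted p under 0.05. Pla2g12a was the brightest at 388 and 246 against 335 and 534, with a difference of 0.43 and an adjusted p of 0.822. Pla2g2d, Pla2g2a and Pla2g2f, which belong to the same group II as Pla2g2e, differed by 0.11, 0.50 and -0.49. Among the relatives with a probe set of their own, none read above 742 on any array.

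**Figure D3:**
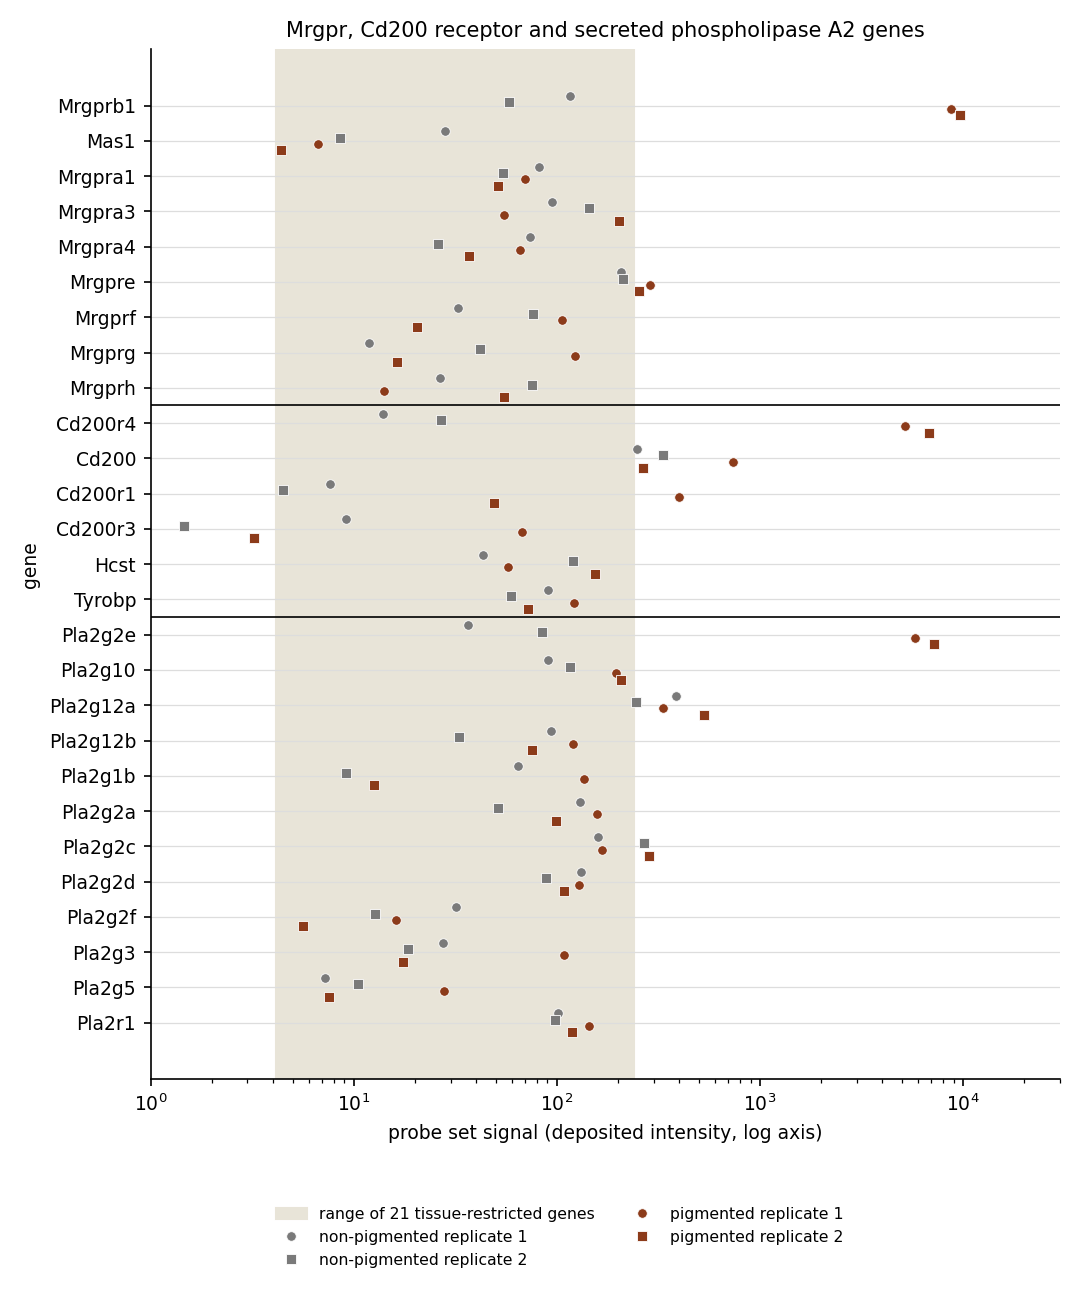
Signal (deposited intensity, log axis) of Mrgprb1, Cd200r4 and Pla2g2e above their relatives and partners, 1 point per array, with the yardstick range of 4.16 to 239 shaded. The relatives shown read at most 742 (Cd200), against 5195 to 9663 for the 3 genes on the pigmented arrays.

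The genes whose levels over the 4 arrays were nearest to the 3 were sought among the 12558 tested genes, by Euclidean distance of the log2 values. Nearest to Mrgprb1 were Oca2, a melanosomal transporter (distance 0.88), Sytl2, a tether of secretory vesicles (0.90), and Bace2, a protease that cleaves Pmel (0.98). Nearest to Pla2g2e were Tspan10 (0.64), Sytl2 (0.96) and Fam174b (1.05). Nearest to Cd200r4 were Cyba, an NADPH oxidase subunit (1.39), Bex1 (1.45) and Pla2g2e itself (1.48). With 4 arrays such nearness says that the levels are alike in the 2 lines and no more.

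Markers of blood cells were read beside these results. Of 12 leukocyte markers 5 were tested and 0 called by limma or at an unadjusted p under 0.05, and their summed signal was 1034 and 988 in the non-pigmented and 1412 and 1259 in the pigmented line. Ptprc, the CD45 antigen of all leukocytes, read 55.6 and 47.1 against 25.5 and 35.0, within the yardstick range. It was the only one of the 12 lower on both pigmented arrays without overlap, a property that 6 of the 21 yardstick genes had. The share of all probe sets lower in that way was not counted. Of the 12, 6 were higher on both, a property of 26.2% of all probe sets. The 2 brightest were Arhgdib, at 460 and 251 against 562 and 82.8, and Laptm5, at 167 and 120 against 211 and 205. Laptm5 was above the brightest yardstick gene on both pigmented arrays, and so was Rac2, at 121 and 154 against 211 and 198. Arhgdib was above it on both non-pigmented arrays and on pigmented replicate 1. None of the markers was listed at 0, and the lowest value was 2.30. Of 12 macrophage markers 6 were tested, 0 called and 1 at an unadjusted p under 0.05, with Lyz2, lysozyme, highest at 800.4 and 2073 in the non-pigmented against 481 and 184 in the pigmented replicates (difference -2.05, adjusted p of 0.335). Lyz2 was the only one of the 12 lower on both pigmented arrays without overlap, and 3 of the 12 were higher on both. Of the 21 yardstick genes 6 were lower and 7 higher in that way. Cd68, the next brightest, read 172 and 177 against 280 and 95.2. The sums of the 12, Lyz2 included, were 1424 and 2866 against 1292 and 961. The 5 basophil markers on the array were all too dim to be tested, with sums of 101 and 122 against 161 and 165. Fewer cells of a type and less RNA per cell cannot be told apart in such samples.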

How the data were processed

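RNA of 2 cultured melanocyte lines was measured on 4 Affymetrix arrays. The deposited values are probe set intensities, made with Affymetrix Expression Console per the submitters' processing notes. Its version, the summary algorithm and a genome build are not given in the sources used here. The trimmed mean (2% at either end) was 500 on every array.

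Of 45101 probe sets 64 were controls. Symbols came from the platform annotation, and 34741 single-symbol probe sets matched RefSeq by Entrez number with 0 symbols changed. limma 3.58.1 in R 4.3.3 (lmFit, eBayes with trend) was run on log2(signal + 16) for the 27022 probe sets at or above the 40th percentile of mean log2 value, with Benjamini-Hochberg adjustment over all of them. A gene is represented by its brightest probe set and counts as called if any probe set of it was. Differences are pigmented less non-pigmented, and for dim genes they depend on the pseudocount, which can understate a change. This was not so for every dim gene, as Cpa3 differed by 0.32 with a pseudocount of 16 and 0.26 with 1. With 2 arrays against 2 the smallest two-sided exact permutation p is 0.333. The number of arrays limits the precision.

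Members and lists were chosen with earlier results of these data known. The genes planned to be named were all members, Kit and Mitf, per list the called genes (at most 4) and the 2 brightest, and the 3 nearest to each gene chosen by values. That plan was not kept in every list, and other genes were named after their values were seen. Of 184 listed genes 158 were on the array with a single symbol.

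The title dates pair 1 array of either line. Deviations of same-date arrays correlated at -0.52, and those of arrays alike in RNA integrity at 0.52, its mirror image. Fits with each pair as a block, other scalings, filters, pseudocounts, variance models and fits without single arrays were alternatives. The code was tested on simulated data. Python 3.11.15 with matplotlib 3.10.9 drew the plots.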

Additional observations from a re-analysis of the deposited data

How the results depend on the processing

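None of the 7 annotation-chosen members was called by limma in any of 15 alternative fits. The fits with a filter could call only Cma1 and Gata2, and with the filter at the 60th percentile only Gata2. Cpa3, Tpsb2, Hdc, Fcer1a and Ms4a2 were too dim to be tested there, so for them those fits carry no information. The fit without a filter tested all 7, and 1 (Tpsb2) had an unadjusted p under 0.05 by limma. The adjusted p ranged from 0.633 to nearly 1 for Cma1 and from 0.775 to nearly 1 for Gata2. The count of 402 called probe sets was 251 without a filter and 1255 with a replicate block on the RNA integrity pair, and 170 to 765 without single arrays (170 without non-pigmented replicate 2, 238 without non-pigmented replicate 1, 765 without pigmented replicate 1). With a replicate block on the date it was 378. The count of 2 further mast cell genes (Kit and Mitf) was 1 (Kit) without a filter and 1 to 3 without single arrays. It was 1 (Kit) without non-pigmented replicate 1, and 3, with Runx1 lower in the pigmented line, without pigmented replicate 1 and with the replicate block on RNA integrity. Kit was called in all 15. The cause of these changes was not tested, except that fewer arrays or more probe sets tested is what those alternatives are made of. Centring arrays on the median shifted every difference by -0.24. Mrgprb1, Cd200r4 and Pla2g2e kept their direction in all 10 alternatives run for them, at 5.96 to 6.96, 6.16 to 8.19 and 5.74 to 6.95. Cpa3, Hdc, Fcer1a and Ms4a2 changed sign as single arrays were left out. With no detection call, a signal under that of the yardstick genes cannot be told from background.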

Other observations

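Markers of the other skin cell types were read as well. Of 5 keratinocyte markers on the array 2 were tested, with 0 called by limma and 1 at an unadjusted p under 0.05. Krt10, a keratin of differentiating keratinocytes, read 306 and 264 in the non-pigmented and 8.84 and 39.4 in the pigmented replicates (difference -3.02, adjusted p of 0.0889). Krt10 was called with the RNA integrity pair as a block (0.0424), with 1 probe set per gene (0.0426) and without pigmented replicate 2 (0.0305). Krt5, a keratin of basal keratinocytes, read 91.4 and 104 against 195 and 214. Of 7 fibroblast markers 4 were tested and 1 was called higher in the pigmented line by limma (against 0.916% of all tested genes). That was Col1a2, a chain of type I collagen, in 1 of its 3 probe sets (difference 3.99, adjusted p of 0.0252), while its brightest differed by 2.11 (adjusted p of 0.153). The call was lost without a filter (0.0614) and without non-pigmented replicate 2 (0.0971), and that probe set was not tested with the filter at the 60th percentile. With the RNA integrity block the brightest was called as well (0.0417). Col3a1, the type III collagen gene, read 102 and 231 against 85.1 and 14.7.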
